A study of Mus musculus with 8 samples.

Results

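A set of 9 receptors through which nerves and local ATP or adenosine can act on tear-secreting cells was followed in the lacrimal gland (LG) of mice on a caloric restriction (CR) or an ad libitum (AL) diet: the muscarinic receptors Chrm1 and Chrm3, the adrenergic receptors Adra1a, Adra1b and Adrb1, the VIP receptors Vipr1 and Vipr2, the ATP-gated channel P2rx7 and the adenosine receptor Adora1. They were taken by symbol from the table of raw counts, where all 9 were found among its 24557 genes, and 7 of the 9 passed the filter on low counts. The libraries came from exorbital LGs of female C57BL/6J mice, 4 fed AL and 4 restricted to 40% fewer calories for 4 months, all 10 to 11 months old when the glands were taken. Restricted mice received their food once a day in the late afternoon, while AL mice could eat at any time, so hours of feeding differ along with calories. In the study's cohort at Baylor College of Medicine, the chow of restricted mice also held 40% more vitamins and micronutrients than that of AL mice. Another cohort, at Jackson Laboratory, ate a standard chow. Neither the study nor the sample titles name the cohort of these glands, so the make-up of the chow may differ as well. No treatment other than diet and no genetic change is named for either group. Below, AL1 to AL4 and CR1 to CR4 stand for the libraries of each diet.

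Tear secretion by LG acini is under nervous control. Acetylcholine released by parasympathetic endings acts mainly on the M3 muscarinic receptor, encoded by Chrm3, which couples through Gq to phospholipase C and releases stored calcium. Noradrenaline acts on alpha receptors that also raise calcium and on beta receptors that couple through Gs to cyclic AMP, and VIP uses receptors of the Gs type. ATP opens P2X channels, and adenosine, formed from ATP outside cells, acts on receptors of which the A1 type, encoded by Adora1, couples to Gi.

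Promoter sequences are shown for Adrb1 and Adora1, the members called in the comparison of diets, and for Chrm3, the member with the most reads, so that the promoters of receptors that did and did not pass the test can be set side by side. Each stretch holds the 250 bases before the RefSeq start of transcription on GRCm38.p6, 5′ to 3′ on the strand of the gene, and capitals mark a match on either strand to the GC box (GGGCGG, or CCGCCC when read on the other strand) or to the core of the cyclic AMP response element (TGACG). The Adrb1 stretch lies at chr19:56721867-56722116 on the plus strand, that of Adora1 at chr1:134235458-134235707 on the minus strand and that of Chrm3 at chr13:10360804-10361053 on the minus strand.
Adrb1: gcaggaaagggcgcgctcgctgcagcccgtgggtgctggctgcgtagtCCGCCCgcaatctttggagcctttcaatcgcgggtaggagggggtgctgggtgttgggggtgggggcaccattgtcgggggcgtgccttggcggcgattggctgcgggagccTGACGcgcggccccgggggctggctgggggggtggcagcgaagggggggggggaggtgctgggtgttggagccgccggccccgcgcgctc
Adora1: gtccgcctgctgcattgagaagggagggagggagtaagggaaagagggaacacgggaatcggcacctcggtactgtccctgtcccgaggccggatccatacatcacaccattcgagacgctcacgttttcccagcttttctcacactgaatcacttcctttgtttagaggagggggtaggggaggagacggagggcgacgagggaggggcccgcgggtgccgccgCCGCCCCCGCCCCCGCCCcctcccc
Chrm3: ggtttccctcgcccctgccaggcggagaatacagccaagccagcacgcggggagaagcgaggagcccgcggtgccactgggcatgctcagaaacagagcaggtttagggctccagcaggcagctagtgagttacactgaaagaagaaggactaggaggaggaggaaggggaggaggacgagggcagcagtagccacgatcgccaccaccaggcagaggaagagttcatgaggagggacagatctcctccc
The Adrb1 promoter held a GC box 202 bases and a cyclic AMP core 90 bases before the start. That of Adora1 held 3 GC boxes, next to each other without overlap, 25, 19 and 13 bases before the start, and the Chrm3 promoter held neither motif. A second RefSeq window of Adora1, not printed, held neither motif. RefSeq windows of 300 bases, which add 50 bases after the start, were at hand for 7 of the 9 members and numbered 10, with none for Chrm1 and Adra1a. Among these genes, all but Chrm3 had a GC box in at least 1 window, and Adrb1 and Vipr1 had the cyclic AMP core. The E-box CACGTG, the motif of the circadian clock factors, occurred in none of the 10 windows. Of 32851 windows of the same length, 35.7% hold a GC box, 20.8% the cyclic AMP core and 7.15% the E-box, and a match describes the letters in the window only.

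The libraries held 12051881 to 22156511 counted reads. Levels are given as CPM, counts scaled to a common library size with relative log expression (RLE) factors, and a floor of 3 counts corresponds to 0.152 to 0.231 CPM, which covers counting error only. Reads came from the 3′ ends of transcripts, so that a count does not grow with the length of a gene and CPM was used as the scale on which receptors were set beside each other. Genes marking LG epithelium were present in all libraries, with 13 of 13 tested and none at 0. Genes marking the parotid gland, a salivary gland near the ear, were present too, with 8 of 8 tested, and their summed level was 12004 to 41166 CPM in AL and 54883 to 303259 CPM in CR. CR4, at the lower end of that range, stood apart from CR1 to CR3, whose sums were at least 242687 CPM, and results that rest on CR4 are given with and without it. The p-values below set the difference between diets against the variation among these 8 libraries. In edgeR's test that variation is estimated with the help of all genes tested.

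Chrm3 had the highest mean of the 9 receptors in both diets, without a difference between them that passed the test. Its levels were 37.0, 38.0, 52.8 and 31.6 CPM in AL1 to AL4 and 43.8, 28.8, 46.6 and 33.5 CPM in CR1 to CR4. The groups overlapped almost completely, with means of 39.8 ± 9.11 CPM in AL and 38.2 ± 8.44 CPM in CR (SD, n = 4 each). The log2 fold change of CR over AL was -0.06, with a standard error (SE) of 0.21 and a 95% interval from -0.52 to 0.40 (edgeR's quasi-likelihood test, Benjamini-Hochberg adjusted p = 0.928). Chrm3 (Gene ID 12671) spans positions 9875486 to 10360847 of chromosome 13 on the minus strand of GRCm38.

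Chrm1, which encodes the M1 receptor, another Gq-coupled muscarinic receptor, was close to the floor. It had 1.08, 0.980, 0.363 and 0.962 CPM in AL1 to AL4 and 0.778, 0.533, 0.619 and 1.56 CPM in CR1 to CR4, where CR4 was the highest of all libraries and AL3 the lowest. Its log2 fold change was 0.04 (SE 0.55), and the interval from -1.16 to 1.24 leaves room for a change of more than 2-fold either way. Without CR4 the log2 fold change was -0.40 (SE 0.60). In every library Chrm3 exceeded Chrm1, by 32.8 to 146 times in AL and by 21.5 to 75.4 times in CR. Chrm1 (Gene ID 12669) lies on chromosome 19 from 8663789 to 8683587 on the plus strand. Of the muscarinic receptors outside the set, Chrm2 had 6 counts in AL and 20 in CR, Chrm4 had 3 and 4, and Chrm5 had 0 in all libraries.

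Adra1a, the alpha-1A adrenergic receptor, was measured above the floor in every library without a difference that passed the test. It had 5.47, 3.74, 2.69 and 1.57 CPM in AL1 to AL4 and 2.69, 2.37, 1.67 and 3.39 CPM in CR1 to CR4. The AL libraries spread more widely than those of CR and enclosed all of them. The log2 fold change was -0.40 (SE 0.41, interval -1.29 to 0.48, edgeR's quasi-likelihood test, Benjamini-Hochberg adjusted p = 0.696). Adra1b, the alpha-1B receptor, was too rarely counted for that test, with 8, 8, 2 and 7 counts in AL1 to AL4 and 7, 2, 0 and 3 in CR1 to CR4. The groups overlapped (two-sided exact permutation test of log2(CPM + 0.5), p = 0.229, n = 4 each), and the 0 in CR3 allows up to 0.186 CPM. Adra1a (Gene ID 11549) lies on chromosome 14 from 66635251 to 66771168 and Adra1b (Gene ID 11548) on chromosome 11 from 43774606 to 43901210.

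Adrb1 rose in CR. This gene encodes the beta-1 adrenergic receptor, which couples to Gs and is best known for speeding the heartbeat. It was low in all AL libraries, at 2.16, 1.35, 2.61 and 0.861 CPM, and reached 27.6, 34.3, 24.6 and 4.56 CPM in CR1 to CR4. No CR library overlapped AL, though CR4 was much nearer to AL than to the other CR libraries. Means were 1.74 ± 0.788 CPM in AL and 22.8 ± 12.8 CPM in CR (SD, n = 4 each), and the log2 fold change was 3.72 (SE 0.55, interval 2.52 to 4.92), a 13.2-fold difference (edgeR's quasi-likelihood test, Benjamini-Hochberg adjusted p = 0.0070). The two-sided exact permutation test gave p = 0.0286, the smallest that 4 against 4 libraries allow, in 1 of 9 such tests. Without CR4 the log2 fold change was 4.07 (SE 0.33), and over the 8 fits that each left out 1 library it ranged from 3.46 to 4.07 with Adrb1 called in all 8. Adrb1 (Gene ID 11554) spans positions 56722199 to 56733113 of chromosome 19 on the plus strand, and its 3′ end shared no 75-base window with another gene.

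Adrb3, the beta receptor of adipocytes, had 17 counts in AL and 31 in CR and could not be tested. In bulk tissue, a higher level of a receptor can come from more cells that make it or from more RNA in each of them, and these cannot be told apart.

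**Figure D1:**
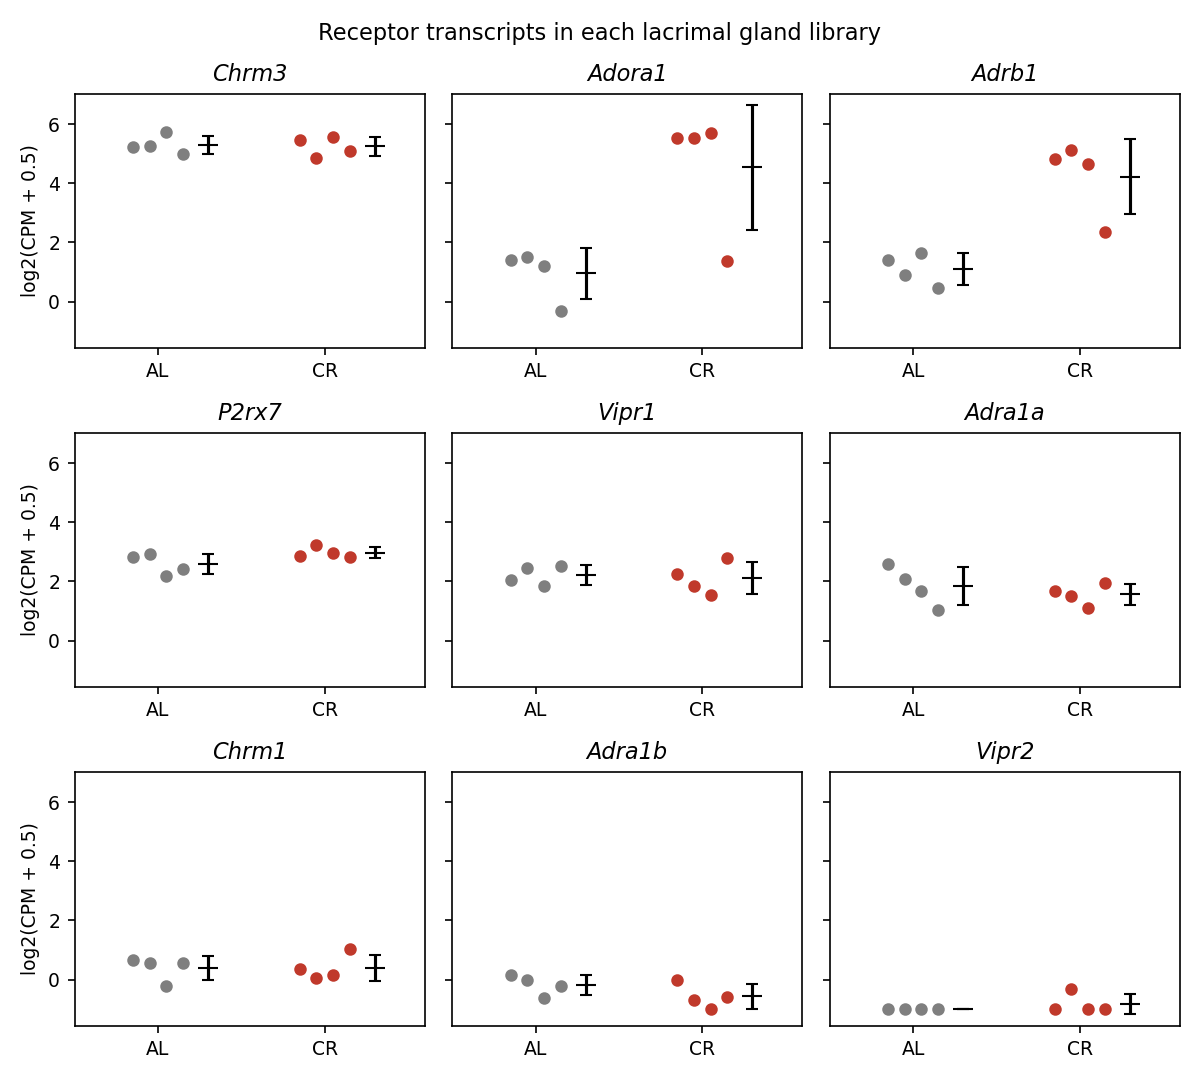
Levels of the 9 receptor transcripts by diet, as log2(CPM + 0.5) on the vertical axis; each point is a library, and the bar beside the points is the mean with its SD (n = 4). Adrb1 and Adora1 are higher in CR1 to CR3 than in every AL library, while the AL and CR points of the other receptors overlap.

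Vipr1 and Vipr2 encode the VPAC receptors for VIP, both of which couple to Gs. Vipr1 had 3.62, 4.96, 3.12 and 5.32 CPM in AL1 to AL4 and 4.25, 3.14, 2.41 and 6.50 CPM in CR1 to CR4. CR held both the lowest and the highest library, and the log2 fold change was -0.07 (SE 0.35, interval -0.82 to 0.68, edgeR's quasi-likelihood test, Benjamini-Hochberg adjusted p = 0.954). Without CR4, the highest library, the log2 fold change of Vipr1 was -0.39 (SE 0.34). Vipr2 was detected in a single library, CR2, with 5 counts or 0.296 CPM. The other 7 libraries had 0 counts, which allow a level of up to 0.152 to 0.231 CPM depending on the library, so a difference at this level was not detectable. Adcyap1r1, the receptor for the related peptide PACAP, averaged 3.48 CPM in AL and 4.51 CPM in CR and was not called (log2 fold change 0.38, SE 0.37). Vipr1 (Gene ID 22354) lies on chromosome 9 from 121642716 to 121672954 and Vipr2 (Gene ID 22355) on chromosome 12 from 116077726 to 116146261.

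P2rx7, an ATP-gated cation channel, ranked behind Chrm3 in AL. Its levels were 6.62, 7.04, 4.06 and 4.86 CPM in AL1 to AL4 and 6.79, 8.88, 7.24 and 6.56 CPM in CR1 to CR4. The CR values clustered in the upper part of the AL range and above it, with overlap between the diets. The log2 fold change was 0.38 (SE 0.25, interval -0.16 to 0.92), below the fold threshold and not significant (edgeR's quasi-likelihood test, Benjamini-Hochberg adjusted p = 0.488). P2rx4, an ATP-gated channel outside the set, had more reads than any of the 9 on average, at 42.4 CPM in AL and 55.7 CPM in CR on average, and was not called either (log2 fold change 0.39, SE 0.23). P2rx7 (Gene ID 18439) lies on chromosome 5 from 122643911 to 122691432 on the plus strand.

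Adora1 rose in CR in 3 of 4 libraries. Its counts were 28, 38, 25 and 6 in AL1 to AL4 and 654, 777, 831 and 38 in CR1 to CR4. These correspond to 2.16, 2.33, 1.81 and 0.304 CPM in AL and to 46.3, 46.0, 51.4 and 2.11 CPM in CR. CR1 to CR3 differed little from each other and stood far above AL, whereas CR4 lay inside the AL range, so that the diets overlapped. The log2 fold change was 4.49 (SE 0.81, interval 2.72 to 6.25), a 22.4-fold difference of fitted means (edgeR's quasi-likelihood test, Benjamini-Hochberg adjusted p = 0.0197), and the two-sided exact permutation test gave p = 0.0857. The call depended on the libraries included: it was made in 3 of the 8 fits without 1 library, those without AL4, CR1 or CR4. Without CR4 the log2 fold change was 4.89 (SE 0.42), and without AL1, AL2, AL3, CR2 or CR3 edgeR's quasi-likelihood test gave adjusted p-values of 0.0596 to 0.0701.

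Adora1 (Gene ID 11539) spans positions 134199223 to 134235431 of chromosome 1 on the minus strand. An exon of it overlaps Mybph on the other strand, with which it shares 2.5% of the 75-base windows of its last 600 bases. Mybph had 2 counts over all 8 libraries, against 2397 for Adora1. Of the other adenosine receptors, Adora2a had 17 counts in AL and 4 in CR, Adora2b had 13 and 4, and Adora3 had 0 in all libraries, so Adora1 was the only one that passed the filter.

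**Figure D2:**
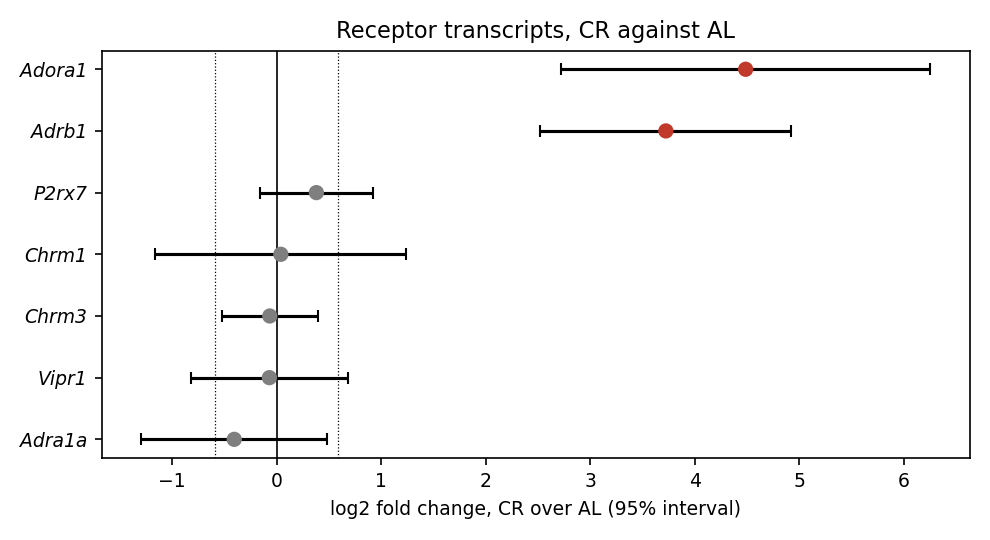
Log2 fold changes of CR over AL (horizontal axis) for the 7 receptors that could be tested, with their 95% intervals; red points were called, gray points were not, and dotted lines mark a fold change of 1.5. The intervals of Adrb1 and Adora1 lie above the threshold, and the other 5 include 0.

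Of the 7 receptors tested, 2 were called higher and 0 lower, where 1.20% of the 11211 genes tested were called higher and 0.785% lower (1.98% in either direction). The receptors were chosen with earlier results of these data known, so these counts are not a test of the set. The median log2 fold change of the 7 was 0.04, beside 0.01 over all genes tested. Adrb1 was the only tested receptor whose CR libraries all lay above AL, as 4.63% of all genes tested did. No receptor lay wholly below AL, as 5.16% of genes did, and 9.79% of genes had no overlap in either direction. Ranked by p-value among all genes tested, Adrb1 came at rank 29 and Adora1 at rank 70.

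The order of the receptors differed between the diets. In AL the means ran from Chrm3 (39.8 CPM) through P2rx7 (5.65), Vipr1 (4.25), Adra1a (3.36), Adrb1 (1.74) and Adora1 (1.65) to Chrm1 (0.846). P2rx7 was above Vipr1, and Vipr1 above Adra1a, in 3 of 4 AL libraries, and Adora1 above Adrb1 in 1 of 4, so these neighbors did not separate. In CR the order was Chrm3 (38.2 CPM), Adora1 (36.5), Adrb1 (22.8), P2rx7 (7.37), Vipr1 (4.07), Adra1a (2.53) and Chrm1 (0.871), and Adora1 exceeded Chrm3 in CR1 to CR3 but not in CR4. Without CR4 the CR means put Adora1 (47.9 CPM) before Chrm3 (39.7) and Adrb1 (28.8), and in CR4 itself P2rx7 exceeded Adrb1. Adrb1 was below Adra1a in all 4 AL libraries, at 0.361 to 0.973 of its level, and above it in all 4 CR libraries, at 1.34 to 14.7 times its level. Adrb1 and Adora1 together took 2.54 to 7.35% of the summed receptor CPM in AL, 55.7, 64.5 and 56.5% in CR1 to CR3 and 11.4% in CR4.

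Marker lists of the parotid gland and of adipocytes were higher in every CR library than in AL. Adrb1 was too, and so was Adora1 in CR1 to CR3. The parotid list, scored as the mean log2(CPM + 0.5) of its 8 genes, had values of 7.80, 6.23, 6.66 and 3.21 in AL1 to AL4 and 12.2, 13.3, 10.4 and 9.84 in CR1 to CR4. AL4 and CR4, the libraries with the lowest score of each diet, were also those with the least Adrb1 and Adora1. The other libraries did not keep the order of the score. CR3 scored close to CR4 but had 51.4 CPM of Adora1 against 2.11 CPM in CR4. AL1 had the highest score of AL, while Adrb1 was highest in AL3 and Adora1 in AL2. All 8 parotid genes were higher in CR at an unadjusted p under 0.05, as were 8.62% of all genes tested. Of the 8, 4 were called, and none was at 0. When this score entered the fit, log2 fold changes were 1.45 (SE 0.87) for Adrb1 and 1.89 (SE 1.46) for Adora1, neither was called, and no gene was called among all those tested, whereas 1081 had an unadjusted p under 0.05. As the score does not overlap between the diets, its part and that of diet cannot be told apart in these libraries.

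The adipocyte list of 9 genes summed to 14.2 to 24.0 CPM in AL and 26.6 to 106 CPM in CR. CR4 was the lowest of CR, while AL3 and not AL4 was the lowest of AL. Of its 5 genes tested, Fabp4, a fatty acid carrier, was called (log2 fold change 2.37, SE 0.44), and no gene of the list was at 0. The submandibular and sublingual list, whose 11 genes had counts, summed to 96.3 to 4963 CPM in AL and 5049 to 58950 CPM in CR, with 1 of 5 tested genes called higher. LG epithelial markers summed to 3815 to 9635 CPM in AL and 1941 to 4724 CPM in CR. Their mean log2(CPM + 0.5) was 6.54 to 6.94 in AL and 5.44 to 6.47 in CR, without overlap, while 8 of the 13 had a positive log2 fold change, the median was 0.22, and 1 was called higher (Sox10, 2.13) and 1 lower (Scgb2b7, -7.96). Macrophage markers (0 of 8 tested called, median log2 fold change -0.83) and myoepithelial and smooth muscle markers (0 of 7 called, median -0.83) had a negative log2 fold change for every gene tested. B cell markers summed to 1.72 to 10.5 CPM in AL and 0.425 to 1.11 CPM in CR, without overlap. All 4 tested skeletal muscle genes had a positive log2 fold change (median 2.19, none called), with sums of 57.0 CPM in CR2 and 35.0 CPM in CR4, whereas CR1 and CR3, at 2.19 and 2.85 CPM, lay within the AL range of 0.796 to 9.85 CPM. The part of these cell types in the levels of Adrb1 and Adora1 was not tested.

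**Figure D3:**
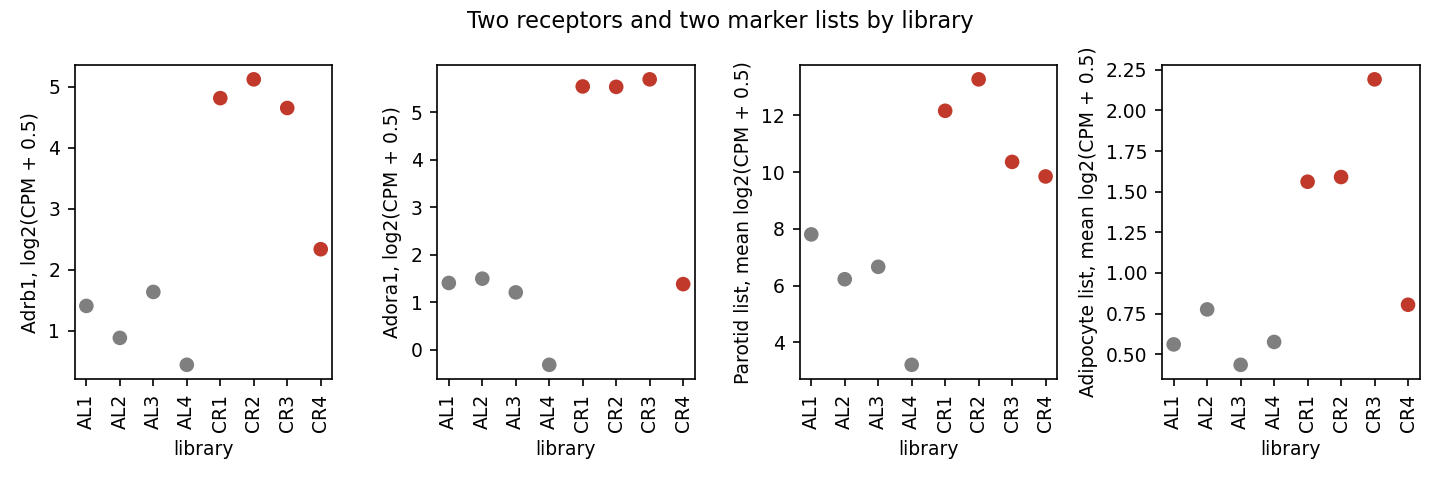
Adrb1 and Adora1, as log2(CPM + 0.5), beside the parotid and adipocyte marker lists, as the mean log2(CPM + 0.5) of the genes of each list, in each of the 8 libraries (AL gray, CR red). In all 4 panels CR4 is the lowest CR library, and AL4 has the lowest value of the AL libraries in the panels of both receptors and of the parotid list.

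Genes acting downstream of the receptors were grouped by signaling arm. In the Gq arm, 0 of 14 tested genes were called higher and 1 lower, with a median log2 fold change of 0.11. The gene called was Prkcb, protein kinase C beta, which had 10.2, 13.5, 18.5 and 13.5 CPM in AL1 to AL4 and 6.37, 6.34, 7.86 and 5.72 CPM in CR1 to CR4. All CR libraries lay below AL, and the log2 fold change was -1.08 (SE 0.23, edgeR's quasi-likelihood test, Benjamini-Hochberg adjusted p = 0.0335). Over the fits that each left out 1 library it stayed between -1.20 and -0.92, and the call was made in 2 of 8 fits, those without AL1 or CR4. The Gq subunits Gnaq and Gna11 (log2 fold changes of 0.04 and 0.27), the phospholipase Plcb4 (0.47) and the calcium release channel Itpr2 (0.18), which follow Chrm3 in the pathway, were not called. Prkce and Prkca, other protein kinases C, had log2 fold changes of -0.70 and -0.55 and were not called either.

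In the Gs and cyclic AMP arm, through which Adrb1 and the VIP receptors act, 1 of 21 tested genes was called higher and 0 lower, with a median log2 fold change of 0.14. This was Pde3b, which breaks down cyclic AMP and is well known from adipocytes. It had 1.23, 1.04, 0.943 and 1.42 CPM in AL1 to AL4 and 5.45, 9.65, 3.28 and 2.11 CPM in CR1 to CR4. CR lay above AL in all libraries, with CR4 nearest to AL, and the log2 fold change was 2.13 (SE 0.46, edgeR's quasi-likelihood test, Benjamini-Hochberg adjusted p = 0.0390). Without 1 library the log2 fold change ranged from 1.63 to 2.39, and the call was made in 1 of the 8 fits, that without CR4. Voom did not call Pde3b. Gnas, the Gs subunit, the adenylyl cyclase Adcy9, the kinase subunit Prkacb and the cyclic AMP sensor Rapgef3 had log2 fold changes of 0.77, 0.82, 1.17 and 0.85, and none was called (edgeR's quasi-likelihood test, Benjamini-Hochberg adjusted p = 0.0710 to 0.100). The fit without CR4 called all 4, as did DESeq2 and voom. Prkaca, the other catalytic subunit, stood at -0.05.

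None of the 4 tested Gi and Go subunits, to which Adora1 couples, was called, and the most abundant, Gnai2, averaged 66.3 CPM in AL against 62.8 CPM in CR. Among receptor kinases, arrestins and RGS proteins, which switch off such receptors, 0 of 12 tested genes were called, with a median log2 fold change of -0.71. Arrb1, an arrestin that binds phosphorylated receptors, averaged 25.5 ± 5.07 CPM in AL against 15.4 ± 2.93 CPM in CR (SD, n = 4 each), with no overlap, and did not pass (edgeR's quasi-likelihood test, Benjamini-Hochberg adjusted p = 0.0834), while DESeq2 called it lower. Of the 26 other receptors of the same families, 7 could be tested and none was called, with a median log2 fold change of -0.06.

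Transcripts for making the neurotransmitters were mostly at 0 at this depth. The cell bodies of the nerves that reach the gland lie in ganglia outside it. Chat and Slc18a3, for making and packing acetylcholine, Th and Dbh, for making noradrenaline, and the peptide genes Vip, Adcyap1, Calca and Calcb had 0 counts in all 8 libraries. Tac1, for substance P, was the only peptide gene tested, at 4.21 CPM in AL and 1.90 CPM in CR (log2 fold change -1.15, SE 0.51), and was not called. Among 11 tested genes that handle ATP and adenosine outside cells, 0 were called higher and 1 lower, with a median log2 fold change of 0.33. The gene called was Enpp2, autotaxin, an enzyme of the nucleotide pyrophosphatase family that mainly makes lysophosphatidic acid. It fell in CR, from a mean of 12.98 ± 0.577 to 6.40 ± 1.46 CPM without overlap between the diets (log2 fold change -1.02, SE 0.21, edgeR's quasi-likelihood test, Benjamini-Hochberg adjusted p = 0.0334), and without 1 library the log2 fold change stayed between -1.19 and -0.93, with the call made in 2 of the 8 fits, those without CR3 or CR4. Slc29a1, a carrier that moves adenosine across the membrane, averaged 6.56 ± 1.29 CPM in AL against 11.8 ± 1.74 CPM in CR without overlap (log2 fold change 0.84, SE 0.22), which did not pass (edgeR's quasi-likelihood test, Benjamini-Hochberg adjusted p = 0.0731) but was called by DESeq2, by voom and without CR4.

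**Figure D4:**
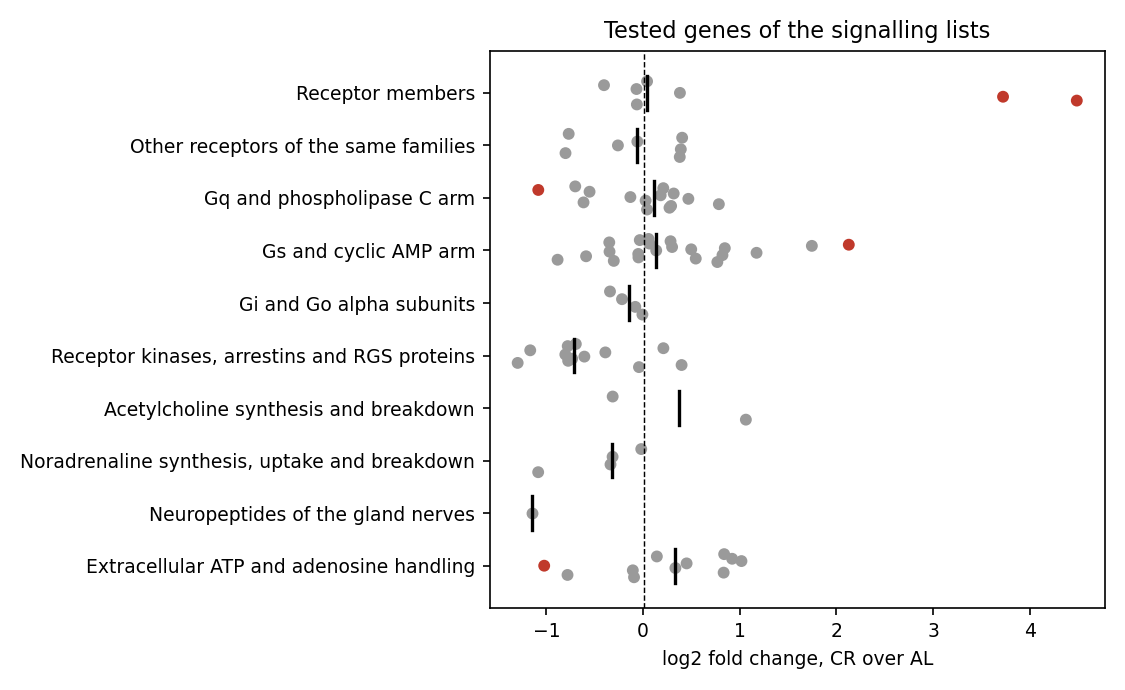
Log2 fold changes of CR over AL (horizontal axis) of every tested gene in the receptor set and in the lists of related receptors, signaling arms and ligand handling; red points were called, short black bars are the medians and the dashed line is the median of all genes tested, 0.01. Called genes are Adrb1 and Adora1 among the receptors, and Pde3b, Prkcb and Enpp2 among the other lists.

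The genes whose log2 CPM followed Adrb1 most closely over the 8 libraries were Snph (Pearson's r = 0.997), Smpdl3b (0.985), Esp8 (0.982), Smc6 (0.980) and Wfdc12 (0.980). For Adora1 they were Tgfb2 (0.993), Klc3 (0.987), Etv1 (0.987), Pbxip1 (0.985) and Atp1b1 (0.985). Adrb1 and Adora1 followed each other with r = 0.971. These correlations describe 8 libraries that share the difference between diets and the position of CR4, and they were taken as the highest among 11211 genes.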

How the data were processed

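RNA of 8 LGs was measured by sequencing 3′ ends (Lexogen QuantSeq FWD, single reads of 75 bases). Per the labels and the study's methods, the authors used cutadapt for trimming, STAR for alignment to mm10 and HTSeq for counting, and the raw counts per gene were deposited. The authors also deposited log2 values, which equal the counts after DESeq2's RLE scaling (largest difference on recomputation 0) and were left aside. The strand setting of HTSeq is not given in the sources used here.

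The table lists 24557 genes, of which 24552 remained without 5 repeated symbols, and 11211 passed filterByExpr of edgeR. Libraries were grouped by the diet in their labels. The diets were compared with edgeR 4.0.16 in R 4.3.3 (RLE factors, quasi-likelihood F test), with Benjamini-Hochberg adjustment over every gene tested. Calls required an adjusted p below 0.05 together with a 1.5-fold difference. These thresholds are those of the study, whose fold changes and p-values came from DESeq2 and not from edgeR. Each SE was derived from the fold change and its F statistic. The biological coefficient of variation was 34.7%. Receptor levels were also compared by two-sided exact permutation tests over 70 splits of log2(CPM + 0.5).

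The members and lists were chosen with earlier results of these data known, and no list was tested as a set. All 9 receptors are named, and of each signaling or ligand list the called genes, up to 4 tested genes with the smallest p and up to 4 with the highest mean. Of cell type lists, called genes and those at 0 may be named, and for each called receptor the 5 genes with the highest Pearson correlation. Related receptors and ligand genes that could not be tested, named for their family, were chosen after their counts were seen. Nerve and Schwann cell markers (0 of 6 tested genes called, Nefl and Snap25 at 0), endothelial (0 of 7) and T cell markers (0 of 1) were checked as well. Positions are from GENCODE vM21 on GRCm38, and promoters from RefSeq on GRCm38.p6, matched by symbol.

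The alternative settings were other scaling factors (TMM, upper quartile), DESeq2 1.42.0, voom of limma 3.58.1 with quality weights, robust dispersions, no filter or a minimum of 10 counts per library, calls without a fold threshold, a replicate block, each library left out, the parotid score as covariate, the 50 most counted genes left out and a pseudocount of 1.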

Additional observations from a re-analysis of the deposited data

Results flagged for a closer look

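In 3 of 19 sets of 4 libraries checked, the highest or lowest library lay farther from the others than Dixon's test allows at its 95% level, which chance alone does for about 1 in 20 sets. Adora1 in CR4 was at 2.11 CPM, against at least 46.0 CPM in the other CR libraries. Chrm1 in AL3 was at 0.363 CPM, against at least 0.962 CPM in the other AL libraries, a gap of few counts near the floor. Vipr2 in CR2 was at 0.296 CPM, which is 5 counts, with 0 in the other 3 CR libraries, so that any value above 0 would have stood out.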

How the results depend on the processing

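Adrb1 was called in 10 of 11 alternatives other than leaving out a library, and Adora1 in 7 of the 10 in which it was tested, since at least 10 counts in every library removed it. The number of receptors called higher, 2, was 1 with robust dispersions, with voom or with at least 10 counts in every library, 0 with the parotid score as covariate and 1 to 2 without 1 library. Receptors at an exact permutation p under 0.05, 1 of 9, numbered 0 to 2 without 1 library. In the signaling and ligand lists, the number called higher, 1, was 2 with no filter on low counts, 6 with DESeq2, 5 with voom (without Pde3b), 0 with the parotid score and 0 to 6 without 1 library, and the number called lower, 2, was 3 with DESeq2, 0 with the parotid score, where log2 fold changes were -0.96 for Prkcb, -0.81 for Enpp2, 0.87 for Pde3b, 0.073 for Prkacb, 0.083 for Rapgef3, 0.42 for Adcy9, 1.42 for Gnas, 1.18 for Slc29a1 and -1.22 for Arrb1, and 0 to 2 without 1 library. Over all genes, 134 called higher and 88 lower became 271 and 165 with no filter, 413 and 316 with DESeq2, 237 and 160 with voom and 0 and 0 with the parotid score. Leaving out 1 library gave 35 to 418 higher and 24 to 239 lower, the highest of each without CR4. Signs turned only for receptors that were not called: Chrm1 was at -0.26 with voom and -0.40 to 0.22 without 1 library, Chrm3 at -0.17 to 0.10 and Vipr1 at -0.39 to 0.12 without 1 library, and with the parotid score Vipr1 was at 0.73 and P2rx7 at -0.067 on the log2 scale. In that fit Adra1a was at -1.36 (SE 0.75) and Chrm1 at 0.79, neither called. The cause of these shifts was not tested.

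A block for the replicate number called 388 genes higher and 312 lower, and in the lists 6 genes higher (Adcy9, Gnas, Pde3b, Prkacb, Rapgef3 and Slc29a1) and 3 lower (Arrb1, Enpp2 and Prkcb). With the block, Adrb1 (log2 fold change 3.54) and Adora1 (4.33) were called again. Deviations of libraries with the same number correlated at 0.182, 0.0995, 0.278 and 0.507, and 3 of the 4 AL libraries correlated best with the CR library of their own number, while AL3 did so with CR1. As 1 pair fell under 0.1, the numbers were not taken as pairs.

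The floor of 3 counts limits what Vipr2 and Adra1b show, and the spread within groups leaves wide intervals for Chrm1, Adra1a and Vipr1.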
